A study of Mus musculus with 25 samples.

Results

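The NR4A and EGR genes encode transcription factors that cells switch on quickly after stimulation. The 6 genes described here are Nr4a1, Nr4a2 and Nr4a3 of the NR4A family and Egr1, Egr2 and Egr3 of the EGR family. They were taken by symbol from a table of 25006 gene entries, and each symbol had 1 entry. They were chosen by their normalized counts in the comparison of anti-CD73 with control given below, where Nr4a1 and Nr4a2 lay in opposite directions, so the values of all 6 in that comparison are a description and carry no test. All 6 passed the filter on low values, a mean normalized count of at least 10 over the libraries, which left 12262 genes.

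RNA was sequenced from C57BL/6 mice carrying tumours of E0771, a mouse mammary carcinoma line. One group of 3 libraries, the controls, is labelled only as control, with no control antibody named, and the other 3 libraries came from tumour-bearing mice given anti-CD73, an antibody against CD73, every 3 days. The labels describe every library of both groups as CD8+ T cells enriched from tumour, and give neither the age nor the sex of the mice, nor whether a library pools animals. The other 19 of the 25 samples hold CD8+ T cells cultured for 7 days, some with the adenosine receptor antagonist SCH58261 or with Lip-1, and were not analysed here. CD73 is the cell-surface enzyme that makes adenosine from AMP, and adenosine raises cyclic AMP in cells that carry the receptor encoded by Adora2a.

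NR4A proteins are orphan nuclear receptors that act without a known natural ligand and are controlled mainly through how much of them is made. Their genes are immediate-early genes, induced through cyclic AMP and the factor CREB and, in T cells, through antigen receptor signalling with calcium, calcineurin and NFAT. EGR proteins are zinc-finger factors induced through the ERK kinases and the serum response factor SRF, and the corepressors NAB1 and NAB2 hold them back. In T cells, NR4A factors and EGR2 and EGR3 are known for limiting responses in tolerance, anergy and exhaustion. NR4A1 is also needed for Ly6C-low patrolling monocytes, and NR4A and EGR genes respond to stimuli in macrophages, fibroblasts and carcinoma cells too.

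The libraries held 10180624 to 17161679 reads in genes. Genes of T cells took little of them: the 15 genes of a T cell marker list, which includes Cd3e, Cd8a and Lck, summed to between 0.00239% and 0.00756% of reads in controls and between 0.00413% and 0.00772% after anti-CD73, with none of the 15 at 0 in all libraries. The 14 genes of a macrophage and monocyte list summed to between 0.0866% and 0.163% in controls and between 0.154% and 0.254% after anti-CD73. The values of the NR4A and EGR genes are those of whole preparations, in which fewer cells of a type and less RNA per cell cannot be told apart. Control replicate 1 stood apart from the other controls: its log2 values differed from the mean of those 2 with an SD of 0.75 over all tested genes, against 0.35 between control replicates 2 and 3. The labels do not tie replicates to separate animals, so the p-values rest on a spread between samples that may be technical.

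Values are normalized counts, gene counts divided by a scaling factor for each library. Log2 fold changes are anti-CD73 minus control on log2(normalized count + 1), with the standard error (SE) from limma fitted to all tested genes. Counts were not divided by transcript length, so the order of levels is given between libraries for 1 gene and not between genes.

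After anti-CD73, Nr4a1 lay higher and Nr4a2 lower than in every control, while Nr4a3 overlapped between the groups. Nr4a1 (ENSMUSG00000023034, encoding the receptor also called NUR77; chromosome 15, 101253902 to 101274795, build GRCm38.p6) stood at 348, 376 and 302 normalized counts in control replicates 1, 2 and 3. It stood at 697, 562 and 447 in anti-CD73 replicates 1, 2 and 3. The lowest treated library lay above the highest control, with group means of 342 ± 37.7 and 569 ± 125 (SD, n = 3). The log2 fold change was 0.71 with an SE of 0.19, a fold of 1.64. Within the treated group, anti-CD73 replicate 3 was the nearest to the controls.

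Nr4a2 (ENSMUSG00000026826, encoding NURR1; chromosome 2, 57106830 to 57124003) showed the opposite order. Its normalized counts were 660, 424 and 412 in control replicates 1, 2 and 3, and 301, 226 and 225 in anti-CD73 replicates 1, 2 and 3. The groups did not overlap, and control replicates 2 and 3 lay close together below control replicate 1. The control mean was 499 ± 140 and the treated mean 250.7 ± 43.8 (SD, n = 3). The log2 fold change was -0.97 with an SE of 0.22, a fold of 0.511.

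Nr4a3 (ENSMUSG00000028341, encoding NOR1; chromosome 4, 48045078 to 48086447) varied most among the controls. Its normalized counts were 880, 338 and 274 in the controls and 468, 420 and 354 after anti-CD73. Control replicate 1 lay above all 5 other libraries, while control replicates 2 and 3 lay below all treated ones. The log2 fold change of -0.08 (SE 0.41) turned to 0.43 (SE 0.15) without control replicate 1, so its direction depends on that library.

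**Figure D1:**
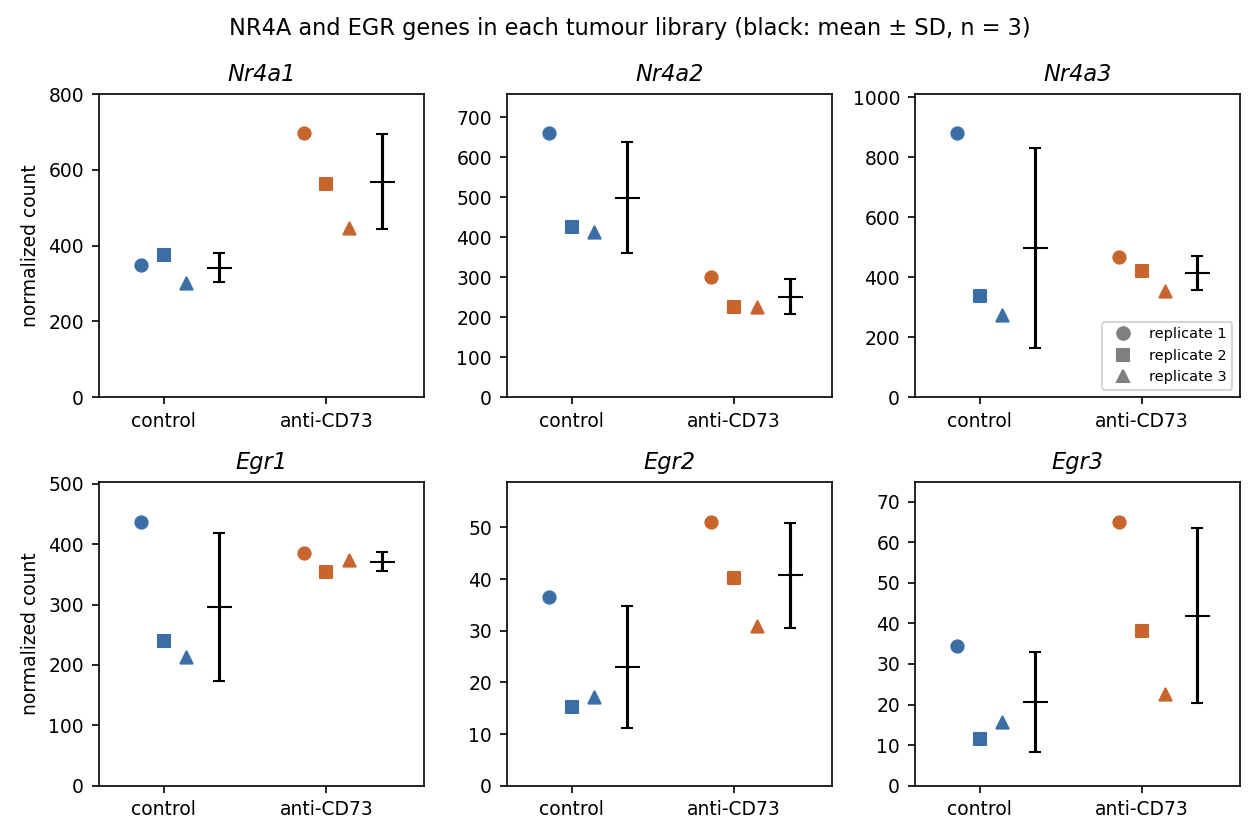
Normalized count of each of the 6 genes (vertical axes, from 0) in the 3 control libraries and the 3 anti-CD73 libraries. Each symbol is 1 library, its shape gives the replicate number, and black marks give the mean ± SD of 3 libraries. Nr4a1 and Nr4a2 are separated between the groups in opposite directions, and control replicate 1 is the highest control in the panels of the other 5 genes besides Nr4a1.

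The stretches before the NR4A start sites are shown because the genes are known CREB targets and lay in different directions here. Sequences come from the RefSeq promoter table of build GRCm38.p6, which matched 4 of the 6 genes. Capitals mark the core of the cyclic AMP response element, TGACG, read on either strand (CGTCA on the other). In Egr2 they also mark a CArG box, the element bound by SRF. For Nr4a1 and Nr4a2 the whole 250 bases before the listed start are given. For Nr4a3 and Egr2, 30 bases that hold marked elements are given.
Nr4a1, chr15:101266596-101266845, plus strand: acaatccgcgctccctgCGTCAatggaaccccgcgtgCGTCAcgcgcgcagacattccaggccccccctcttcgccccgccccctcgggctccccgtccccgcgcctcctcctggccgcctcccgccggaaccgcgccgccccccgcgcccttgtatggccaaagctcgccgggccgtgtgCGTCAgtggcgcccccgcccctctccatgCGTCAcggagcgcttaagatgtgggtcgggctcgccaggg
Nr4a2, chr2:57124004-57124253, minus strand: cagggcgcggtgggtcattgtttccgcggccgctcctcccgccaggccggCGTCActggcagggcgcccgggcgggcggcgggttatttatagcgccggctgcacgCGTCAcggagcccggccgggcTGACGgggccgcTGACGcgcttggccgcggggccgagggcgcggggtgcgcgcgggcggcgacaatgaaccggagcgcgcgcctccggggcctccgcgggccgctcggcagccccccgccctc
Nr4a3, chr4:48045086-48045115, plus strand: ccatgtCGTCAcatTGACGtctcgcattcc
Egr2, chr10:67537793-67537822, plus strand: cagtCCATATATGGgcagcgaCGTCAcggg

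Each of the 3 NR4A genes held 4 TGACG cores in the 250 bases before its listed start. Only the Nr4a2 stretch lies outside the span given for its gene. The stretches printed for Nr4a1, Nr4a3 and Egr2 lie inside the spans of those genes, and so may fall within other transcripts of them. Of the 32851 stretches of that length in the table, 17.8% held at least 1 and 0.137% held 4 or more. The full palindrome TGACGTCA, found in 1.55% of all stretches, was in none of those of the 4 genes. The pair printed for Nr4a3 lies on opposite strands with 3 bases between, each core read away from the other. Egr2 has 5 listed starts, and the CArG box printed above was found before 3 of them, with another CArG box before a further 1. A CArG box was found in 1.47% of all stretches. By this count of letters Nr4a1 and Nr4a2, whose levels lay in opposite directions, did not differ.

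The Nr4a1 and Nr4a2 shares of NR4A reads were separate between the groups while the NR4A sum overlapped. These shares use the same values by which the genes were chosen, so they describe that choice in another form and are no further result. The 3 genes summed to 1889, 1139 and 988 normalized counts in the controls and to 1466, 1208 and 1026 after anti-CD73. Nr4a1 supplied 18.4, 33.0 and 30.5% of NR4A reads in control replicates 1, 2 and 3. After anti-CD73 it supplied 47.6, 46.5 and 43.6%. The lowest treated share, 43.6%, had a 95% Wilson interval of 40.5 to 46.7%, and the highest control share, 33.0%, one of 30.04 to 36.2%, which cover counting error only.

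Nr4a2 supplied 34.9, 37.3 and 41.7% of NR4A reads in the controls and 20.5, 18.7 and 21.9% after anti-CD73. Its treated shares varied little among themselves and lay below every control share. The ratio of Nr4a1 to Nr4a2 normalized counts was 0.528, 0.887 and 0.731 in the controls and 2.31, 2.49 and 1.99 after anti-CD73. It was therefore below 1 in each control library and above 1 in each treated one, although a ratio of reads is not a ratio of transcripts. As every treated library lay above all controls for Nr4a1 and below them for Nr4a2, this ratio had to separate the groups. The Nr4a3 share was 46.6% in control replicate 1 and between 27.7 and 34.8% in the other 5 libraries.

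**Figure D2:**
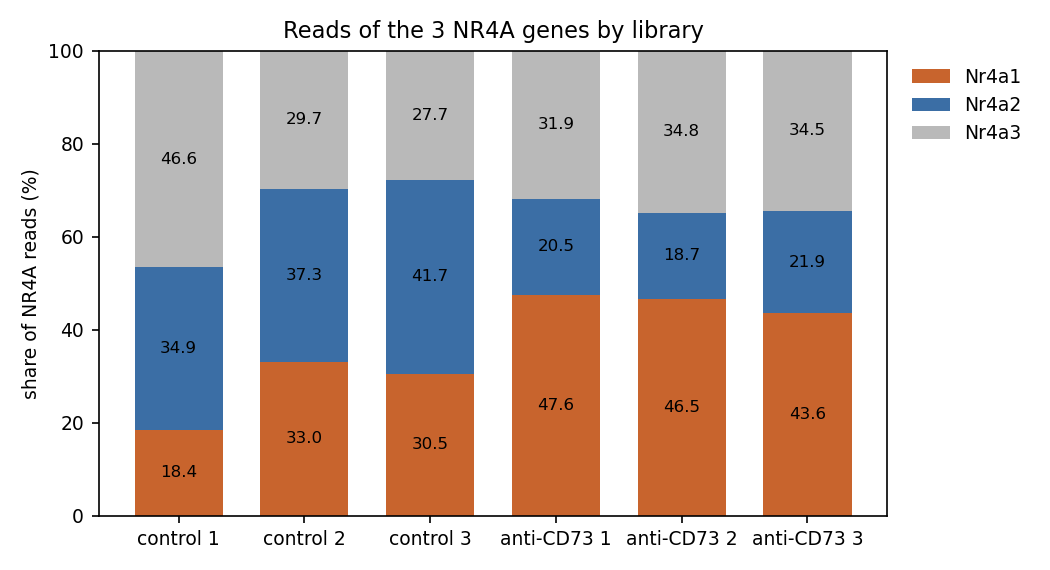
Share of the reads of Nr4a1, Nr4a2 and Nr4a3 (vertical axis, percent of their sum) in each of the 6 tumour libraries (horizontal axis). Each bar is 1 library and carries its shares as printed numbers. The shares use the same values by which the genes were chosen. The Nr4a1 share lies between 18.4 and 33.0% in controls and between 43.6 and 47.6% after anti-CD73, and the Nr4a2 share lies between 18.7 and 21.9% after anti-CD73.

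All 3 EGR genes had higher means after anti-CD73, and all 3 overlapped between the groups through control replicate 1. Egr1 (ENSMUSG00000038418), the most widely induced EGR factor, stood at 438, 239 and 213 normalized counts in control libraries and at 385, 355 and 374 after anti-CD73. The treated libraries lay close together (371 ± 15.3, SD, n = 3), between control replicate 1 above and the other controls below. The log2 fold change was 0.40 with an SE of 0.27, and 0.72 with an SE of 0.12 without control replicate 1.

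Egr2 (ENSMUSG00000037868; chromosome 10, 67534469 to 67542188), a regulator of T cell anergy and of myelinating glia, was measured from few reads. Its normalized counts were 36.6, 15.2 and 17.2 in the controls and 51.1, 40.2 and 30.8 after anti-CD73. Control replicate 1 lay above anti-CD73 replicate 3, and the other controls lay below all treated libraries. The lowest value rested on 12 reads, with an exact 95% Poisson interval of 6.20 to 21.0 reads for counting error only. The log2 fold change was 0.88 with an SE of 0.39, and 1.25 with an SE of 0.31 without control replicate 1.

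Egr3 (ENSMUSG00000033730; chromosome 14, 70077317 to 70082613), which acts with Egr2 in T cells, had 34.5, 11.4 and 15.7 normalized counts in control libraries. It had 65.1, 38.1 and 22.6 after anti-CD73. The treated libraries were spread widely, and anti-CD73 replicate 3 lay below control replicate 1. The lowest value rested on 9 reads (exact 95% Poisson interval 4.12 to 17.1 reads). The log2 fold change was 1.02 with an SE of 0.52, the largest of the 6 genes but also the one with the largest error, and it was 1.45 with an SE of 0.44 without control replicate 1.

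Egr1 supplied 86.0, 90 and 86.6% of the reads of the 3 EGR genes in control replicates 1, 2 and 3 and 76.8, 81.9 and 87.5% in anti-CD73 replicates 1, 2 and 3. Unlike the Nr4a1 and Nr4a2 shares, these overlapped between the groups, as the Nr4a3 share did. The EGR sum was 509, 266 and 245 normalized counts in the controls and 501, 433 and 428 after anti-CD73, and control replicate 1 held the highest sum. Egr4, the fourth EGR gene, had 0 reads in all 6 libraries.

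Groups did not overlap for 2 of the 6 genes, Nr4a1 on the higher side and Nr4a2 on the lower. Over all tested genes this held for 23.5%, with 11.5% higher and 12% lower, and since this contrast chose the genes, nothing is read from the count. Control replicate 1 was the highest control for 5 of the 6, all but Nr4a1. Without it, the groups did not overlap for 6 of 6 genes, 5 higher and 1 lower, where 53.5% of all tested genes did not overlap (25.7% higher and 27.8% lower). The log2 fold changes of Nr4a1 and Nr4a2 were then 0.73 (SE 0.18) and -0.75 (SE 0.15). With all 6 libraries the groups of neither gene overlapped, so leaving out 1 library could not turn either direction, and nothing is read from this.

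**Figure D3:**
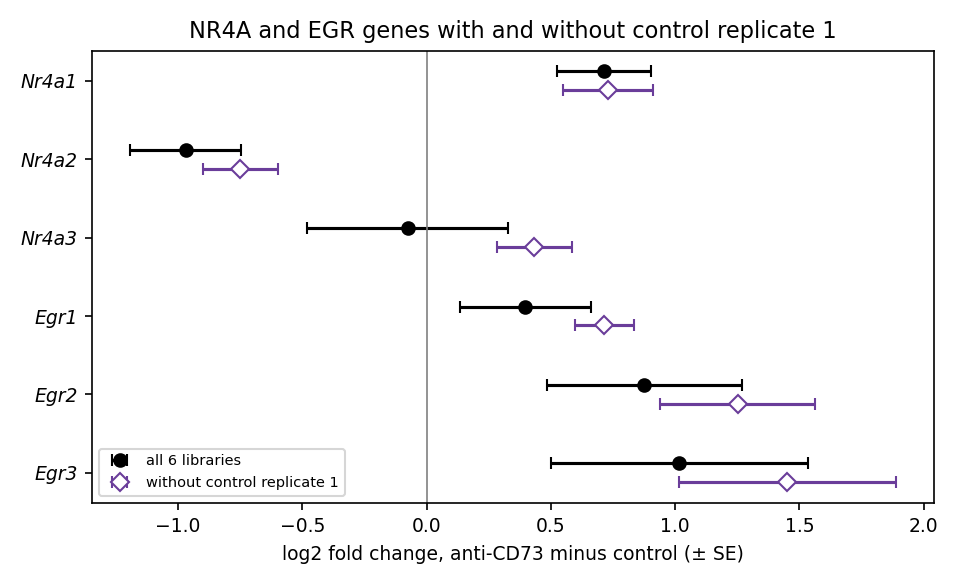
Log2 fold change, anti-CD73 minus control, on log2(normalized count + 1) (horizontal axis) for each of the 6 genes (vertical axis). Points are limma estimates and bars are ± SE: filled circles use all 6 libraries, open diamonds leave out control replicate 1. Nr4a1 and Nr4a2 keep their sides of 0, Nr4a3 goes from -0.08 to 0.43, and the 3 EGR genes lie farther from 0 without that library.

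Across libraries, the genes closest to each other were Egr2 and Egr3. After each gene was centred on its mean over the 6 libraries, the root mean square difference of their log2 values was 0.25. Egr1 differed from both Nr4a3 and Egr2 by 0.33, and Nr4a1 from Egr1 by 0.39. Nr4a1 and Nr4a2 differed by 0.88, and the widest pair was Nr4a2 and Egr3 at 1.07. Nr4a2 was nearer to Nr4a3 (0.54) than to any EGR gene. Nr4a1 was nearer to Egr1 (0.386) and Egr2 (0.395) than to either relative of its own family. These distances use the same values by which the genes were chosen, so they describe that choice and are no further result.

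Egr2 and Egr3 both ordered the 6 libraries as anti-CD73 replicate 1, anti-CD73 replicate 2, control replicate 1, anti-CD73 replicate 3, control replicate 3 and control replicate 2, from high to low. The median of the T cell marker list had the same order: centred on each gene's mean, it was 0.78, 0.64, 0.60, -0.31, -0.62 and -0.94 on the log2 scale in those libraries. For Egr2 and Egr3, some neighbours in this order lie within counting error. Egr2 had 38 reads in anti-CD73 replicate 2, 36 in control replicate 1 and 30 in anti-CD73 replicate 3. Egr3 had 36 and 34 in the first 2 of these, and 22 in anti-CD73 replicate 3 against 21 in control replicate 3. Not all neighbours were this close, as Egr3 had 70 reads in anti-CD73 replicate 1 against 36 in anti-CD73 replicate 2. All 15 T cell genes lay higher after anti-CD73, with a median log2 fold change of 0.66, and 1.27 without control replicate 1. Cd8a, a defining gene of the labelled cells, had 122, 7.60 and 24.7 normalized counts in control libraries and 90.2, 82.6 and 35.0 after anti-CD73. The part of these cells in the Egr2 and Egr3 values was not tested.

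Lists of myeloid cells lay higher after anti-CD73 as well. All 14 macrophage and monocyte genes lay higher (median log2 fold change 0.75), as did 7 of 9 tested neutrophil genes (0.89) and all 8 tested dendritic cell genes (0.75). The neutrophil median was 0.39 and the dendritic cell median 1.25 without control replicate 1. The macrophage list median, centred, was 0.14, -0.51 and -0.87 in control replicates 1, 2 and 3 and 0.43, 0.70 and -0.06 in anti-CD73 replicates 1, 2 and 3. Summed neutrophil genes took between 0.0450% and 0.0615% of reads in controls and between 0.0695% and 0.124% after anti-CD73, and none of their 10 genes was at 0 in every library. Summed endothelial genes (between 0.0235% and 0.0268% against between 0.0292% and 0.0373%) and fibroblast genes (between 0.0350% and 0.0434% against between 0.0514% and 0.0606%) were separate between the groups as well. Nr4a1 lay in the direction of these sums and Nr4a2 in the opposite one. The part of these cell types in the NR4A and EGR values was not tested.

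Lists of other cell types lay on both sides of 0. Erythroid genes, 5 tested, all lay lower (median -0.73, and -1.64 without control replicate 1), with a centred median of -1.85 in control replicate 1 against 1.28 and 1.32 in the other controls. The medians were 0.75 for 6 endothelial genes, 0.36 for 10 fibroblast genes, 0.02 for 4 epithelial and tumour genes and -0.11 for 6 B and NK cell genes. The last 2 of these were 0.31 and 0.23 without control replicate 1. The erythroid median of control replicate 1 was opposite in sign to its high Nr4a2, Nr4a3 and EGR values.

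**Figure D4:**
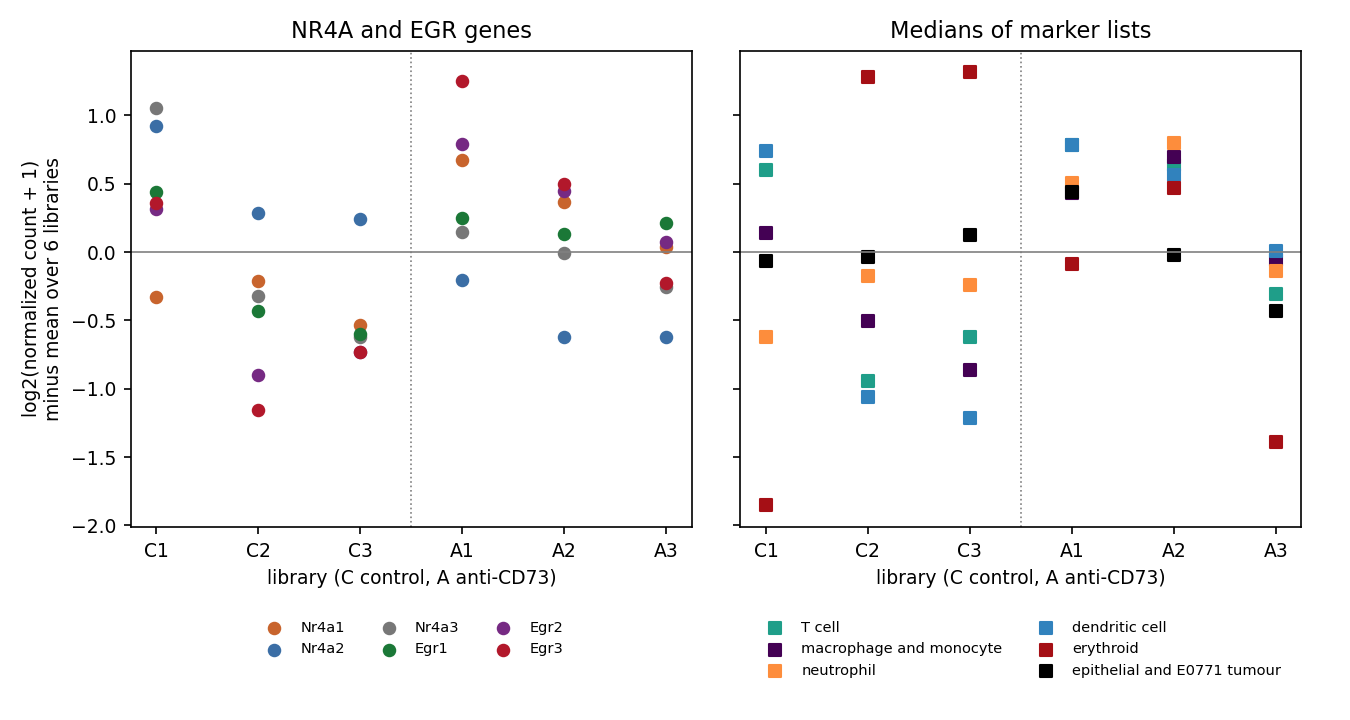
Log2(normalized count + 1) minus the mean over the 6 libraries (vertical axes) for the 6 genes (left) and for the medians of 6 marker lists (right), by library (C control, A anti-CD73). Each point is 1 gene or 1 list median in 1 library. Nr4a2 lies above 0 in all controls and below 0 in all treated libraries, and the T cell median runs from -0.94 in C2 to 0.78 in A1.

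The genes with the pattern most like each of the 6 were sought among 10238 genes with a mean of at least 50, by the same root mean square difference over the 6 libraries. For Nr4a1 the closest were Rdh12 (0.031), Entpd5 (0.081) and Cacnb3 (0.095), and for Egr1 they were Thada (0.040), Pax5 (0.060) and Taf7 (0.067). Tnfaip3 (0.111), the NF-kappaB-induced inhibitor A20, was the closest to Nr4a3, followed by Lipo3 (0.113) and Gas2l3 (0.119). Those closest to Nr4a2 were Tmem267 (0.145), Fbxo33 (0.147) and Amd1 (0.149), of which Amd1 may share reads with copies of the gene. Sla (0.117), Samsn1 (0.127) and Gimap3 (0.1298) were the closest to Egr2. The 3 closest to Egr3 were Rhoh (0.153), Ppp1r16b (0.260) and Il2rb (0.260). These are descriptions over 6 libraries that all genes share.

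In the fit over all genes, 0 of 12262 passed an adjusted p of 0.05 by limma (smallest adjusted p = 0.141), while 1902 (15.5%) had an unadjusted p under 0.05. edgeR called 0 and had 1868 (15.2%) at an unadjusted p under 0.05, and DESeq2 called 586 (4.78%). Without control replicate 1, limma called 2724 (22.2%, 11.9% higher and 10.3% lower). The lists below hold other genes of these pathways and are read against those shares and against a median log2 fold change of 0.004 over all tested genes.

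Partners of the EGR and NR4A proteins lay near the median of all genes. Of the 10 tested, 8 lay higher and 2 lower, with a median of 0.10 (0.00 without control replicate 1), and 0 passed by limma. Nab1, an EGR corepressor, had a log2 fold change of 0.01 (SE 0.15, limma adjusted p = 0.98). Nab2, a corepressor that EGR factors themselves induce, had 335, 901 and 950 normalized counts in the controls and 652, 712 and 821 after anti-CD73. Nab2 was thus lowest in control replicate 1, where Egr1, Egr2 and Egr3 had their highest control values. Its log2 fold change was 0.14, and -0.35 without control replicate 1. Cited2, a coregulator of CBP and p300, was the one partner whose groups did not overlap, at 1929, 2181.8 and 1883 against 1535, 1477 and 1235 (log2 fold change -0.50, adjusted p = 0.18 by limma and 0.032 by DESeq2). Rxra, a partner receptor of NR4A1 and NR4A2, lay at 0.16 (SE 0.12).

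The signals upstream of these genes gave few differences in transcript level. In the SRF and ERK list, 11 of 18 genes lay higher and 7 lower (median 0.08, and 0.04 without control replicate 1), and Srf itself lay at 0.22 (limma adjusted p = 0.53). Mrtfa, an SRF coactivator, had non-overlapping groups at 557, 602 and 678 against 903, 906 and 941 normalized counts, a log2 fold change of 0.59 (SE 0.12, adjusted p = 0.15 by limma and 0.0016 by DESeq2). In the cyclic AMP and CREB list, 7 of 16 lay higher and 9 lower (median -0.03). There Adora2a, an adenosine receptor gene, was the one gene at an unadjusted p under 0.05 by limma. Adora2b, another adenosine receptor gene, is in the same list. It stood at 52.8, 39.3 and 21.7 in the controls and 150, 124 and 65.8 after anti-CD73, a log2 fold change of 1.56 (SE 0.42, adjusted p = 0.18 by limma and 0.016 by DESeq2).

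In the calcineurin, NFAT and MEF2 list, 8 of 17 lay higher and 9 lower (median -0.14, but -0.01 without control replicate 1 and -0.05 without control replicate 3). Rcan1, a calcineurin inhibitor that NFAT induces, had 1100, 1166 and 1192 normalized counts in the controls and 681, 704 and 804 after anti-CD73. Its groups did not overlap, and it lay on the side of Nr4a2 and opposite to Nr4a1, with a log2 fold change of -0.66 (SE 0.12, adjusted p = 0.14 by limma and 0.00015 by DESeq2). Hdac5, a class IIa deacetylase that represses MEF2 targets, lay higher by 0.89 (SE 0.21, adjusted p = 0.17 by limma and 0.010 by DESeq2), and Nfatc2 lay at -0.72 (SE 0.29).

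Other immediate-early genes lay on both sides of 0, as the NR4A and EGR genes did. Of the 39 in the list, 17 lay higher and 22 lower, with a median of -0.06. At an unadjusted p under 0.05 there were 2 higher and 11 lower, where 8.69% and 6.82% of all tested genes were, and 0 passed the adjusted threshold by limma. Without control replicate 1 the median was -0.15, and limma called 5 higher and 14 lower. The median was 0.05 without control replicate 2 and -0.13 without anti-CD73 replicate 1. The 4 called by DESeq2 with all libraries were Fosb, Ier3, Klf4 and Klf10, all lower, and DESeq2 called 2.85% of all genes higher and 1.93% lower.

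Fosb, an AP-1 subunit and CREB target, had 8526, 6269 and 6855 normalized counts in the controls and 4318, 4368 and 3049 after anti-CD73. Klf4, a Krüppel-like factor of epithelia and monocytes, stood at 2094, 2160 and 2300 against 1364, 1394 and 1197. Both had groups that did not overlap, in the direction of Nr4a2, with log2 fold changes of -0.89 (SE 0.18) and -0.73 (SE 0.11) and limma adjusted p = 0.15 and 0.14. Fos, an AP-1 subunit, lay at 0.29 (SE 0.18) with overlapping groups, and Jun at -0.05 (SE 0.33). Btg2, an antiproliferative early gene, lay at 0.69 (SE 0.25) and Ptgs2, the inducible cyclooxygenase, at 0.77 (SE 0.72). Ptgs2 was highest in control replicate 1 (2280, against 409 and 255 in the other controls), as Nr4a3 was, and lay at 1.71 without it.

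**Figure D5:**
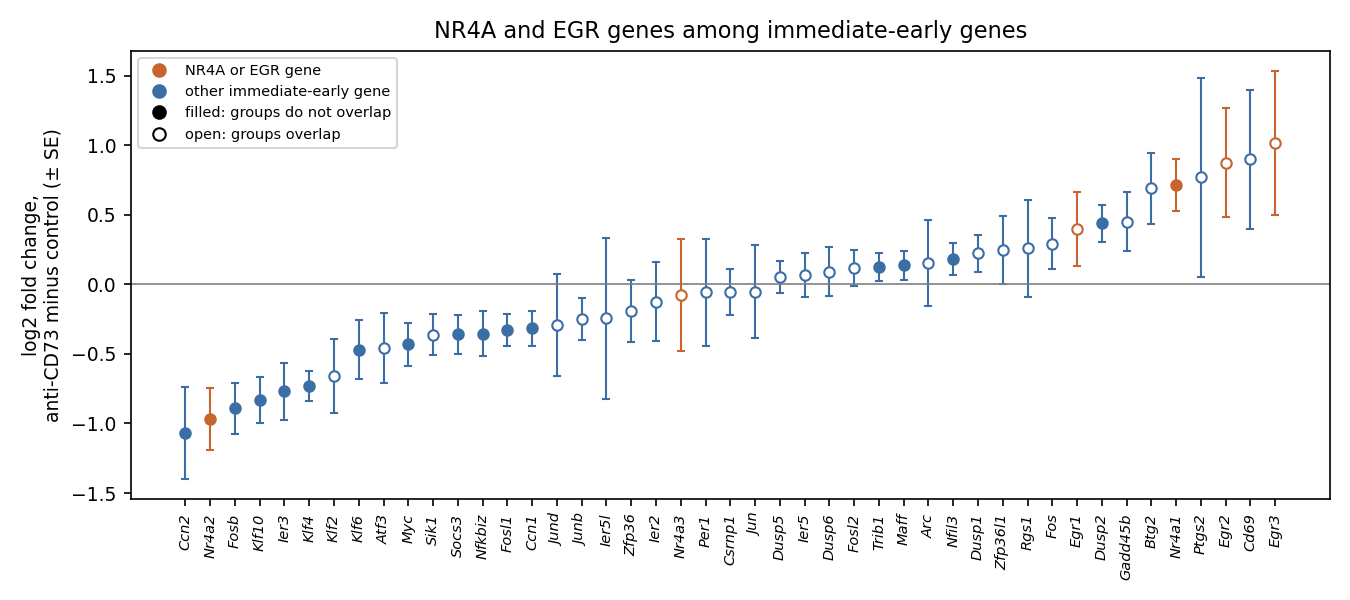
Log2 fold change, anti-CD73 minus control, on log2(normalized count + 1), with ± SE bars from limma (vertical axis) for the 6 NR4A and EGR genes and 39 other immediate-early genes, ordered by value (horizontal axis). Filled points have groups that do not overlap. Nr4a2 (-0.97) lies at the low end beside Fosb (-0.89), and Nr4a1 (0.71), Egr2 (0.88) and Egr3 (1.02) lie at the high end.

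Genes known to be induced by cyclic AMP through CREB, as the NR4A genes are, did not share a direction. Of 16 tested, 7 lay higher and 9 lower (median -0.03, and 0.11 without control replicate 1), and 0 passed by limma. Gem, a small GTPase, had non-overlapping groups at 1692, 1477 and 1448 against 988, 677 and 1004 (log2 fold change -0.81, SE 0.17, adjusted p = 0.15 by limma and 0.0058 by DESeq2). Crem, the cyclic AMP early repressor gene, was highest in control replicate 1 at 1231, against 426 and 473 in the other controls and 598, 596 and 487 after anti-CD73. Nr4a3 had that same excess in control replicate 1.

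Genes linked downstream to NR4A and EGR2 in T cell dysfunction lay mostly higher, with 15 of 18 tested higher and 3 lower (median 0.31), and 0 passed by limma. The median was 0.63 without control replicate 1, and limma then called 4 higher and 1 lower. Batf, an AP-1 factor, stood at 75.1, 114 and 112 in the controls and 153, 185 and 177 after anti-CD73 (log2 fold change 0.79, SE 0.21, adjusted p = 0.18 by limma and 0.037 by DESeq2). Havcr2, the checkpoint receptor TIM-3, lay at 0.47 (SE 0.18) and Entpd1, the enzyme CD39, at 1.04 (SE 0.40). Cblb, an anergy ligase, lay at 0.00 (SE 0.11), and Tox was below the filter. Batf, Havcr2 and Entpd1 are also expressed by myeloid cells, whose marker lists lay higher as given above. All 15 T cell marker genes lay higher too, with a larger median of 0.66, and 1.27 without control replicate 1. The part of T cells and myeloid cells in the values of this list was not tested.

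Genes of Ly6C-low monocytes, which depend on NR4A1, lay higher in 9 of 11 tested cases (median 0.76). Genes of Ly6C-high monocytes, which do not, lay higher in 10 of 10 (median 0.97). Both kinds thus lay on the side of Nr4a1. With all 6 libraries 0 genes of either list passed by limma, while DESeq2 called 0 of the first and 3 of the second higher. Without control replicate 1, limma called 7 of the first list higher and 1 lower (median 1.19) and 6 of the second higher (median 0.92). Adgre4 of the first list lay at 1.53 (SE 0.44), and Plac8 of the second at 1.54 (SE 0.39). Cx3cr1, the defining receptor of Ly6C-low monocytes, was below the filter, at 12.2, 1.27 and 0.748 in the controls and 10.2, 8.47 and 6.17 after anti-CD73. Metabolic genes linked to NR4A factors lay lower in 7 of 9 (median -0.08), with 0 passing by limma. That median was -0.38 without control replicate 1, and limma then called 2 lower.

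Among the other nuclear receptors, 24 of 45 passed the filter, of which 20 lay higher and 4 lower after anti-CD73 (median 0.27). Groups did not overlap for 4 on the higher side and 1 on the lower, and 0 passed by limma. Over all tested genes, groups did not overlap for 11.5% on the higher side and 12% on the lower, and nothing is read from the count. Vdr, the vitamin D receptor, stood at 23.4, 34.2 and 38.2 in the controls and 165, 146 and 73.0 after anti-CD73 (log2 fold change 1.92, SE 0.36, limma adjusted p = 0.14). DESeq2 called Vdr too (adjusted p = 0.00017). With all 6 libraries, Nr4a2 at -0.97 lay below each of the 24, of which Nr2f1, a COUP-TF receptor gene, was the lowest at -0.46. Without control replicate 1 this order was lost, as Nr2f1 lay at -0.90 and Rarg, a retinoic acid receptor gene, at -0.78, both below Nr4a2 at -0.75. Since this contrast chose Nr4a2, nothing is read from its place in either order.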

How the data were processed

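RNA libraries of 3 control and 3 anti-CD73 tumour samples were used, grouped by their titles and matched to table columns by their descriptions. Per the labels, the authors deposited a signal, read counts of genes scaled by DESeq size factors. The submitters' processing notes name Bowtie 0.12.7 and mm10. Which counter, strand setting and annotation were used is not stated in the sources at hand, so reads of overlapping or near-identical genes are uncertain. Every value was a whole multiple of 1 read (100% within 0.01), and the recovered reads, 10180624 to 17161679 per library, served for edgeR 4.0.16 and DESeq2 1.42.0.

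The main fit was limma-trend (limma 3.58.1 under R 4.3.3), two-sided, of log2(normalized count + 1) for 12262 genes with a mean of at least 10, with Benjamini-Hochberg adjustment and a threshold of 0.05. Fold changes on this scale understate those of genes with few reads. The 6 genes, the 11 pathway and family lists and the 9 marker lists were chosen with earlier results of these data known. Genes named were the 6, a panel of 30, up to 3 genes of each pathway list with the smallest p, and 3 of the most similar pattern for each of the 6. Of the panel, Wt1 was below the filter. Creb1 (log2 fold change -0.05), Nfatc1 (-0.32) and Ly6c2 (1.11), also of the panel, are given only here. Cd8a, Nr2f1 and Rarg were named after their values were seen. Coordinates are 1-based and from RefSeq GRCm38.p6, the assembly of mm10. On simulated data with 200 of 12262 genes changed in each of 5 draws, limma found 45% of the 2-fold and 91% of the 4-fold changes, with 4.75% of calls false. The simulated libraries were drawn alike within each group, with none standing apart as control replicate 1 did. These rates therefore do not carry over to the data. Alternatives were pseudocounts of 0.5 and 8, no filter or a mean of at least 50, TMM and quantile scaling, edgeR, DESeq2, replicate blocks and each library left out. Figures were drawn with matplotlib 3.10.9.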

Additional observations from a re-analysis of the deposited data

How the results depend on the processing

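With all 6 libraries limma called 0 genes, edgeR 0 and DESeq2 586. Leaving out 1 library at a time gave 0 to 2724 calls, the highest without control replicate 1. Chosen after seeing the data, edgeR and DESeq2 without control replicate 1 called 2703 and 2679. The cause of this gap was not tested. Deviations of same-numbered libraries by title correlated at 0.19, -0.10 and 0.26, and by description at -0.16 and 0.26. The pair at 0.26, control replicate 3 and anti-CD73 replicate 3, is the same in both. With 3 libraries per group and control replicate 1 standing apart, these correlations cannot decide whether the samples are paired. A replicate block by title number called 0 genes. A replicate block by description number, which compares only control replicates 2 and 3 with anti-CD73 replicates 1 and 3, called 1780, and control replicate 1 carries no weight in it.

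Nr4a3 reversed from -0.08 to 0.42 under that block, to 0.43 when control replicate 1 was left out, to 0.03 when anti-CD73 replicate 3 was, and to 0.46 by both edgeR and DESeq2 without control replicate 1. Leaving out 1 library gave it -0.41 to 0.43. The other 5 genes kept their direction under every alternative that gave a value: Nr4a1 lay between 0.56 and 0.88, Nr4a2 between -1.11 and -0.68, Egr1 between 0.20 and 0.75, Egr2 between 0.64 and 1.34 and Egr3 between 0.64 and 1.63. For Nr4a1 and Nr4a2, whose groups do not overlap, leaving out 1 library could not turn the direction. Egr2 and Egr3 had no value under a mean of at least 50. No scaling moved the median of all genes beyond -0.03 or 0.02. Depth limits Egr2 and Egr3, which rest on 9 to 70 reads per library.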

Other observations

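Nr5a1, which encodes steroidogenic factor 1, a nuclear receptor of adrenal and gonadal tissue, stood at 728, 1029 and 1289 normalized counts in control replicates 1, 2 and 3 and at 1097, 985 and 996 after anti-CD73. These values overlapped between the groups and lay far above 0 in all 6 libraries, which the labels describe as CD8+ T cells. Nr5a1 was singled out after its values were seen.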
